A study of Mus musculus with 8 samples.

Results

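Heat shock proteins and chaperones were followed as a group of 10 named genes: Hspa1a, Hspa1b, Hspb1, Hspb8, Hsph1, Dnajb1, Hsp90aa1, Hspd1, Bag3 and Cryab. They were picked by gene symbol, with earlier results of these data known. Of the 10, 6 were among the 23930 amplicons of the table used here (Hspa1a, Hspa1b, Hsph1, Dnajb1, Bag3 and Cryab), and Hspb1, Hspb8, Hsp90aa1 and Hspd1 were not analysed here. All 6 passed the filter on low counts and were tested among 12820 genes.

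Heat shock proteins hold unfolded proteins and help them fold again or reach the proteasome. Most inducible members are switched on by the transcription factor HSF1, which binds alternating GAA and TTC units in their promoters. HSP70 proteins work in a cycle driven by ATP, which J proteins such as Dnajb1 start and nucleotide exchange factors such as Hsph1 and Bag3 complete. Small heat shock proteins such as Cryab bind unfolding proteins without ATP. Cryab, known from the eye lens and from muscle, is also abundant in the kidney medulla, where high salt raises it.

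The data are counts of messenger RNA on tagged ribosomes of mouse kidney endothelium. By the labels' protocols, the mice carried an EGFP-tagged ribosomal protein, Rpl10a, switched on by the tamoxifen-inducible Cdh5-CreERT2 driver of endothelial cells, and both genotypes share this system. The groups were 2 SOCS3iKEO mice given LPS, 1 SOCS3iKEO mouse given saline, 3 WT mice given LPS and 2 WT mice given saline, where SOCS3iKEO stands for an inducible loss of Socs3 in endothelium. LPS (bacterial lipopolysaccharide) was injected into the abdomen as 250 µg in 250 µl and saline as 250 µl, and mice were taken 14 h later. Each library carries its own animal number. The sources used here give neither age nor sex for any mouse. Replicate numbers below follow the order of deposit and pair no mice.

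Libraries held 7093794 to 14877519 reads, and levels are given as reads per 1000000 panel reads (RPM), as deposited, or as RPM scaled by TMM, which evens out shifts shared by most genes. The TMM factors were 0.671 and 0.709 in SOCS3iKEO LPS, 1.25 in SOCS3iKEO saline, 0.994 to 1.07 in WT LPS and 1.25 to 1.26 in WT saline, so scaling moved the SOCS3iKEO LPS libraries up relative to the others. Socs3 stood at 2.372 and 1.773 RPM in SOCS3iKEO LPS, 0.282 RPM in SOCS3iKEO saline, 9.882, 1.259 and 2.363 RPM in WT LPS and 0.631 and 0.202 RPM in WT saline, and since the sources do not say whether its amplicon lies within the deleted part, it does not check the genotype labels. Animal numbers 6992 to 6998 hold SOCS3iKEO LPS and WT saline, and 7032 to 7038 hold SOCS3iKEO saline and WT LPS, so a difference between these runs of numbers cannot be told apart from LPS within a genotype or from genotype within a treatment, and the difference of the LPS effects between genotypes is the same contrast as that between the runs. WT LPS replicates 2 and 3 and WT saline replicate 2 had 3320 to 3987 reads on 4 Y-linked genes, against 1 to 3 reads in the other libraries. No SOCS3iKEO library had such reads, so the presence of Y-linked reads is not balanced between the genotypes. With a term for Y-linked reads, 4631 genes were called between genotypes after LPS, in place of 6502. The 10 endothelial markers were present in every library, with a summed level of 3616 and 5289 RPM in SOCS3iKEO LPS, 6807 RPM in SOCS3iKEO saline, 5190.2 to 6394 RPM in WT LPS and 7260.3 and 7915 RPM in WT saline, but tubule markers were present too. Single endothelial markers moved in opposite directions, so their sum is not a fixed reference. For LPS in SOCS3iKEO their log2 fold changes ran from -3.06 (Tek) to 2.65 (Cdh5), and in WT from -1.28 to 0.36. Fewer cells of a type and less RNA per cell cannot be told apart in these samples.

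The promoters show what the letters of an HSF1 element look like in these genes. RefSeq windows of 300 bases (250 before to 50 after the start, build GRCm38.p6) were matched for 5 of the 6 genes, all but Cryab. The windows were searched for GAANNTTC and TTCNNGAA, each of which reads the same on both strands, and the 2 motifs may overlap by a unit. Hspa1a and Hspa1b, neighbours on chromosome 17, are shown first because they are near-identical copies: 247 of the 250 bases before the start are the same. Hsph1 and Bag3 follow as short stretches around their matches. Capitals mark the motif, and all sequences run 5′ to 3′ on the gene's strand.
Hspa1a, chr17:34972157-34972406, minus strand: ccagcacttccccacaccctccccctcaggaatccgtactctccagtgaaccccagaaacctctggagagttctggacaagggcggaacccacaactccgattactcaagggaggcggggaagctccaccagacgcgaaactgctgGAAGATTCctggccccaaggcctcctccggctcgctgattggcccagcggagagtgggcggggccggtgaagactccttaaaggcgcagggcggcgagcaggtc
Hspa1b, chr17:34959239-34959488, minus strand: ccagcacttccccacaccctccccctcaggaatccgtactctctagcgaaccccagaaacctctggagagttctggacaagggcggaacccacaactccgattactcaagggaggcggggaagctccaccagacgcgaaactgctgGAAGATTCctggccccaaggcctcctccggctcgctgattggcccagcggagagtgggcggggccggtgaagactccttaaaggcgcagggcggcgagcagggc
Hsph1, chr5:149636350-149636379, minus strand: ggtagaatctTTCTCGAAggctcgagaaga
Hsph1, chr5:149636287-149636312, minus strand: aaatgctgcagaTTCTGGAAAGTTCt
Bag3, chr7:128523603-128523632, plus strand: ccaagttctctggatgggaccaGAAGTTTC

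Hspa1a and Hspa1b each held GAAGATTC at bases -104 to -97 from the start. Hsph1 held TTCTCGAA at -33 to -26, and TTCTGGAA at 37 to 44 overlapping GAAAGTTC at 42 to 49, which together make 3 alternating units. Bag3 held GAAGTTTC at 43 to 50. Neither of the 2 Dnajb1 windows held either motif. Hsph1 also had 2 windows, and the positions given are from its first start. From its second start the matches lie at -54 to -47, 16 to 23 and 21 to 28. So 4 of the 5 genes with a window held a motif, against 15.06% of all 32851 windows. For 3 alternating units it was 1 of 5, against 0.6% of all windows. The Bag3 match ends at the last base of its window, so a further unit after it would not have been seen. The first counts are of genes, with any window matching, and the shares are of windows. Hspa1a and Hspa1b count as 2 though their promoters are near-identical. These matches describe letters and are not evidence of binding.

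After LPS, Cryab was lower in both genotypes, Hspa1b and Hsph1 were lower in WT, and Bag3 and Dnajb1 were higher in SOCS3iKEO. In WT, 3 of the 6 genes fell (Hspa1b, Hsph1 and Cryab) and 0 rose, where 8.79% of all 12820 genes fell and 6.85% rose at an adjusted p under 0.05 (limma, Benjamini-Hochberg). In SOCS3iKEO, 1 of 6 fell (Cryab) and 2 rose (Bag3 and Dnajb1), where 23.9% of all genes fell and 20.2% rose. Between genotypes after LPS, 2 of 6 were higher in SOCS3iKEO (Bag3 and Dnajb1) and 0 lower, where 24% of all genes were higher and 26.7% lower, so this count is near the share of all genes. Between genotypes after saline, 0 of 6 and 0% of all genes passed, with 423 genes at an unadjusted p under 0.05, 0 genes called by edgeR and 5 called by DESeq2 on recovered reads. The LPS effect differed between genotypes for 1 of 6 (Bag3, a more positive effect in SOCS3iKEO), where 8.96% of all genes had a more positive and 9.5% a more negative effect in SOCS3iKEO. The median log2 fold change of the 6 genes was -0.78 for LPS in SOCS3iKEO and -1.74 for LPS in WT, against -0.08 and -0.02 over all genes tested. The WT median was -0.73 without WT saline replicate 1 and -2.75 without WT saline replicate 2. These comparisons share libraries, so their counts are not independent of each other. With so few libraries, groups without overlap were common. On the scaled values, LPS libraries were all above saline for 40% of all genes and all below for 45.7% in SOCS3iKEO. In WT the shares were 26.7% and 29.7%. After LPS both SOCS3iKEO libraries were above all WT libraries for 31.9% and below for 35.3%. The SOCS3iKEO comparison with saline rests on 1 saline library, whose spread is taken from the other groups, and when only the SOCS3iKEO libraries were fitted 0 of 6 genes and 0 of all 12820 passed (4559 at an unadjusted p under 0.05).

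**Figure D1:**
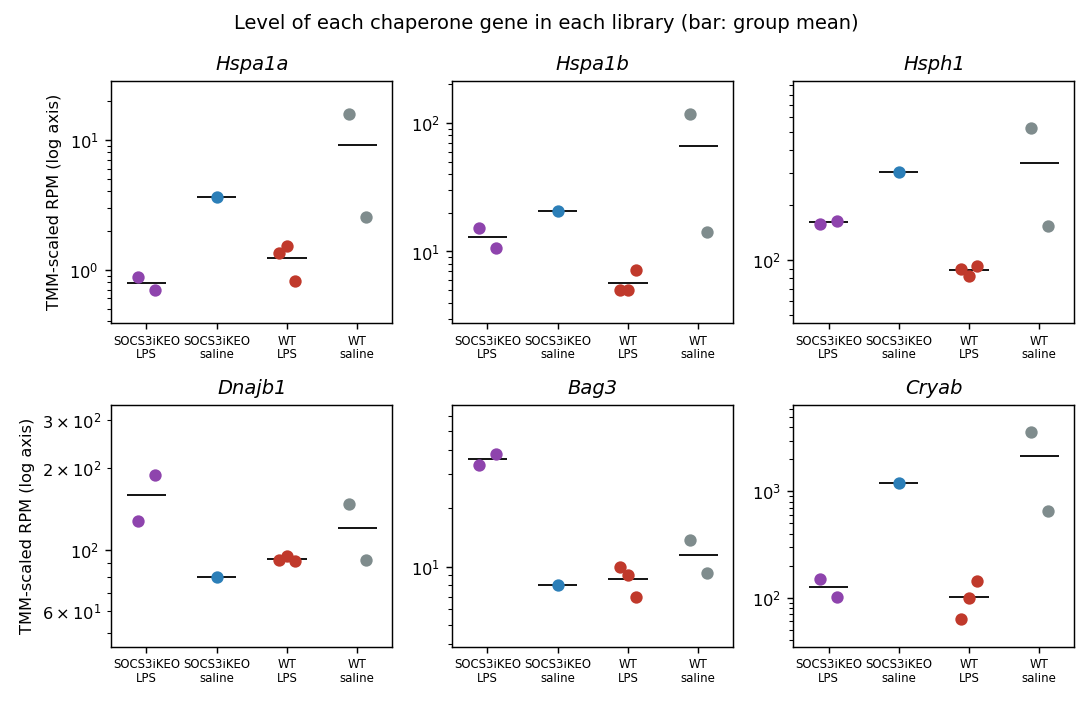
TMM-scaled RPM (log axis) of the 6 genes in each library, by genotype and treatment, with each point 1 library and each bar the group mean. Cryab lies at 62.5 to 150.3 in the 5 LPS libraries and at 654 to 3630.3 in the 3 saline libraries, while Bag3 is highest in the 2 SOCS3iKEO LPS libraries at 33.7 and 38.2.

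Hspa1a and Hspa1b encode the stress-inducible HSP70 protein (chromosome 17, 34969190 to 34972156 and 34956436 to 34959238, mm10, minus strand). Their transcripts share 1873 stretches of 31 bases, 63.8% of those of Hspa1a and 67.6% of those of Hspa1b, so reads may be split between the copies and each gene's value is uncertain. Hspa1b had 10.199 and 7.52 RPM as deposited in SOCS3iKEO LPS, against 25.515 RPM in SOCS3iKEO saline. It had 5.025, 5.33 and 7.18 RPM in WT LPS, against 149.06 and 17.745 RPM in WT saline. As deposited every LPS library was below every saline library, but after scaling SOCS3iKEO LPS replicate 1 (15.2 RPM) was above WT saline replicate 2 (14.2 RPM). The WT saline libraries differed 8.31-fold from each other after scaling. On the scaled values Hspa1b averaged 5.72 ± 1.21 RPM in WT LPS and 66.1 ± 73.4 RPM in WT saline (SD, n = 3 and n = 2).

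In WT the log2 fold change of Hspa1b was -2.68 (SE 0.68, adjusted p = 0.0299, limma). Without WT saline replicate 1, the highest library, it was -1.19 and did not pass (adjusted p = 0.147). Nor did it pass without WT LPS replicate 1 (adjusted p = 0.074), 2 (0.0698) or 3 (0.0684), with a pseudocount of 10 (0.0603) or with no filter on low counts (0.122). In SOCS3iKEO the log2 fold change for LPS was -0.65 (SE 0.92, 95% interval -2.71 to 1.42, adjusted p = 0.593). After LPS both SOCS3iKEO libraries were above the 3 WT libraries, as for 31.9% of all genes on the scaled values. Set against WT after LPS, SOCS3iKEO had a log2 fold change of 1.04 (SE 0.68, adjusted p = 0.227, limma). The SE of this difference pools the spread of all groups, including that of the WT saline libraries, which are outside the comparison. That difference passed without WT saline replicate 1 (adjusted p = 0.0246) or 2 (0.0225) and in the fit on the LPS libraries alone (0.0262). Its LPS effects differed by 2.03 (SOCS3iKEO minus WT, SE 1.14, 95% interval -0.55 to 4.6, adjusted p = 0.231), and it passed without WT saline replicate 2 (3.51, adjusted p = 0.0302) and with DESeq2 (2.93, adjusted p = 0.0217).

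Hspa1a was scarce, with 5 and 7 reads (0.593 and 0.497 RPM) in SOCS3iKEO LPS and 32 reads (4.511 RPM) in SOCS3iKEO saline. It had 16, 22 and 9 reads (1.34, 1.629 and 0.818 RPM) in WT LPS and 283 and 47 reads (19.842 and 3.159 RPM) in WT saline. On both scales all LPS libraries were below all saline libraries and WT saline replicate 1 was the highest. In WT the log2 fold change was -1.8 (SE 0.54, 95% interval -3.01 to -0.59), which missed the threshold (adjusted p = 0.0513, limma). It passed with edgeR (-2.87, adjusted p = 0.0191), with DESeq2 (0.000947), on RPM as deposited (-2.06, 0.0251), with a term for Y-linked reads (0.0373) and without WT saline replicate 2 (-2.92, 0.00555). It did not pass under the other 12 of the 17 alternatives, among them the fit without WT saline replicate 1 (-0.68, adjusted p = 0.313). In SOCS3iKEO it was -1.37 (SE 0.72, adjusted p = 0.15), and it passed without WT saline replicate 1 (adjusted p = 0.0167) or 2 (0.0195). The genotypes after LPS differed by -0.30 (SOCS3iKEO minus WT, SE 0.54, adjusted p = 0.659), with libraries that overlapped after scaling, while as deposited both SOCS3iKEO libraries were below the 3 WT libraries.

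Hsph1 encodes HSP110, a nucleotide exchange factor of HSP70 (chromosome 5, 149614287 to 149636376, minus strand). It had 106.027 and 116.34 RPM as deposited in SOCS3iKEO LPS, against 376.244 RPM in SOCS3iKEO saline. It had 89.109, 87.208 and 93.795 RPM in WT LPS, against 665.582 and 191.161 RPM in WT saline. As deposited the 5 LPS libraries were close together and all below the 3 saline libraries, but after scaling the SOCS3iKEO LPS libraries (158 and 164 RPM) were above WT saline replicate 2 (153 RPM). After scaling, Hsph1 averaged 161 ± 4.37 RPM in SOCS3iKEO LPS (SD, n = 2), 302 RPM in SOCS3iKEO saline (n = 1), 88.1 ± 5.8 RPM in WT LPS (n = 3) and 340.1 ± 265 RPM in WT saline (n = 2).

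In WT the log2 fold change of Hsph1 was -1.68 (SE 0.41, adjusted p = 0.0266, limma). Without WT saline replicate 1 it was -0.79 and did not pass (adjusted p = 0.142). The call was also lost without WT LPS replicate 1 (adjusted p = 0.06), 2 (0.0647) or 3 (0.0691) and with no filter on low counts (0.107). In SOCS3iKEO it was -0.90 (SE 0.56, 95% interval -2.16 to 0.35, adjusted p = 0.214), and on RPM as deposited it passed (-1.75, adjusted p = 0.0233), as it did without WT saline replicate 1 or 2 (-0.90, adjusted p = 0.0303 each). After LPS the scaled values of both SOCS3iKEO libraries were above the WT libraries, as for 31.9% of all genes. The log2 fold change between genotypes after LPS was 0.86 (SE 0.41, 95% interval -0.07 to 1.8, adjusted p = 0.11, limma). The SE of this difference also includes the spread between the WT saline libraries. That difference passed with DESeq2 (0.0423), in the fit on the LPS libraries alone (0.0101) and without WT saline replicate 1 or 2 (0.0101 each). Its LPS effects differed by 0.78 (SOCS3iKEO minus WT, SE 0.69, adjusted p = 0.447), with 1.67 (adjusted p = 0.0454) without WT saline replicate 2 and -0.11 (0.869) without WT saline replicate 1.

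Dnajb1 encodes HSP40, the J protein that hands clients to HSP70 (chromosome 8, 83608193 to 83612653, plus strand). It had 85.865 and 133.791 RPM as deposited in SOCS3iKEO LPS, against 99.665 RPM in SOCS3iKEO saline. It had 91.538, 101.273 and 91.977 RPM in WT LPS, against 186.36 and 115.342 RPM in WT saline. On this scale the SOCS3iKEO saline value lay between the SOCS3iKEO LPS libraries. After scaling, SOCS3iKEO LPS stood above, at 128 and 189 RPM against 80 RPM in SOCS3iKEO saline, and the WT libraries stood at 91.3 to 94.9 RPM with LPS and 92.3 and 148 RPM with saline. The call therefore depends on the scaling.

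On the scaled values Dnajb1 rose with LPS in SOCS3iKEO (log2 fold change 0.95, SE 0.34, adjusted p = 0.0448, limma). On RPM as deposited the log2 fold change was 0.10 (adjusted p = 0.821). The call was also lost with edgeR (0.99, adjusted p = 0.0531), with no filter on low counts (0.0884) and without SOCS3iKEO LPS replicate 2 (0.67, 0.134) or WT LPS replicate 2 (0.0696) or 3 (0.0689). In WT it was -0.33 (SE 0.25, adjusted p = 0.405). After LPS Dnajb1 was higher in SOCS3iKEO than in WT (log2 fold change 0.74, SE 0.25, adjusted p = 0.0339), with 0.18 (adjusted p = 0.595) on RPM as deposited and 0.55 (0.168) with a term for Y-linked reads. That call was lost with no filter on low counts (0.0744) and without SOCS3iKEO LPS replicate 2 (0.46, 0.193) or WT LPS replicate 1 (0.0538), 2 (0.0768) or 3 (0.0816). The difference of the LPS effects was 1.28 (SE 0.42, 95% interval 0.34 to 2.22, adjusted p = 0.0613), and it passed with RLE size factors (1.34, adjusted p = 0.0461), DESeq2 (1.42, 0.015) and without SOCS3iKEO LPS replicate 1 (1.56, 0.0462).

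Bag3 encodes a BAG-domain co-chaperone that links HSP70 to autophagy (chromosome 7, 128523616 to 128546981, plus strand). It had 22.652 and 27.099 RPM as deposited in SOCS3iKEO LPS, against 10.009 RPM in SOCS3iKEO saline. It had 9.882, 9.698 and 6.998 RPM in WT LPS, against 17.248 and 11.628 RPM in WT saline. Both SOCS3iKEO LPS libraries were above all 6 others on the deposited and on the scaled values. Scaled, Bag3 averaged 36 ± 3.17 RPM in SOCS3iKEO LPS (SD, n = 2), 8.03 RPM in SOCS3iKEO saline (n = 1), 8.66 ± 1.54 RPM in WT LPS (n = 3) and 11.5 ± 3.08 RPM in WT saline (n = 2).

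Bag3 rose with LPS in SOCS3iKEO (log2 fold change 2.03, SE 0.36, adjusted p = 0.00225, limma), a call lost when only the SOCS3iKEO libraries were fitted (adjusted p = 0.0726). In WT the log2 fold change of Bag3 was -0.36 (SE 0.26, 95% interval -0.96 to 0.24, adjusted p = 0.388). After LPS it was higher in SOCS3iKEO than in WT (log2 fold change 1.95, SE 0.26, adjusted p = 0.00051), and this passed under all 17 alternatives run, with log2 fold changes of 1.30 to 2.13. The difference of the LPS effects was 2.39 (SE 0.44, adjusted p = 0.0113). It passed in 14 of 15 alternatives, and without WT saline replicate 1 it was 2.14 (adjusted p = 0.0693). Tubule markers moved with this result: the 9 proximal tubule markers summed to 2339 and 1386 RPM in SOCS3iKEO LPS, 1145 RPM in SOCS3iKEO saline, 348 to 658 RPM in WT LPS and 773 and 981 RPM in WT saline, with none of the 9 at 0 in any group. Of them, 8 of 9 were higher in SOCS3iKEO than in WT after LPS and 0 lower, where 24% of all genes were higher. The LPS effect was more positive in SOCS3iKEO for 8 of the 9 and more negative for 0, where 8.96% of all genes were more positive. The median difference of the LPS effects over the 9 was 2.38. The 9 leukocyte markers summed to 35.5 and 16.9 RPM, 5.5 RPM, 5.77 to 13.2 RPM and 3.3 and 5.58 RPM in the same order of groups, with Cd3e at 0 in SOCS3iKEO LPS, Itgam, S100a8, S100a9 and Ly6g at 0 in SOCS3iKEO saline and Ly6g at 0 in WT saline. Their part in the levels of Bag3 and Dnajb1 was not tested.

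**Figure D2:**
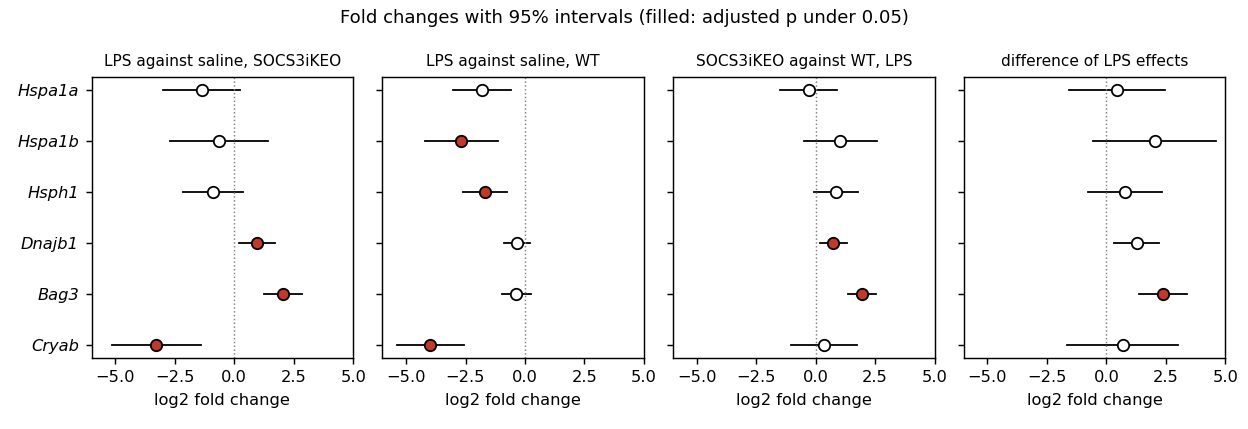
Log2 fold changes of the 6 genes on log2(TMM-scaled RPM + 1) with 95% intervals from limma, for LPS against saline in SOCS3iKEO and in WT, SOCS3iKEO against WT after LPS and the difference of the LPS effects (SOCS3iKEO minus WT). Filled points passed an adjusted p of 0.05, and Bag3 is filled in every panel except that of WT.

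Cryab encodes alpha B-crystallin, a small heat shock protein (chromosome 9, 50751325 to 50756636, plus strand). Its first bases overlap Hspb2 on the other strand (50751078 to 50752354), but the transcripts share 0 stretches of 31 bases. Cryab had 100.927 and 71.578 RPM as deposited in SOCS3iKEO LPS, against 1507.656 RPM in SOCS3iKEO saline. It had 62.142, 107.196 and 145.6 RPM in WT LPS, against 4583.282 and 816.332 RPM in WT saline. All 5 LPS libraries were far below the 3 saline libraries, in each genotype and on either scale. The WT saline libraries differed 5.56-fold from each other after scaling, replicate 1 being the higher, as for the other 5 genes.

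Cryab averaged 126 ± 34.9 scaled RPM in SOCS3iKEO LPS (SD, n = 2) against 1209.7 in SOCS3iKEO saline (n = 1), and 102 ± 41 in WT LPS (n = 3) against 2142 ± 2105 in WT saline (n = 2). It fell in SOCS3iKEO (log2 fold change -3.28, SE 0.83, adjusted p = 0.0116, limma), a call lost with no filter on low counts (0.0588) and when only the SOCS3iKEO libraries were fitted (0.0613). It fell in WT (log2 fold change -3.98, SE 0.62, adjusted p = 0.00432), ranking 40 of 12820 genes by size of log2 fold change. The WT call passed under all 17 alternatives run, with -2.74 (adjusted p = 0.027) without WT saline replicate 1 and -5.21 (0.00227) without WT saline replicate 2. After LPS the genotypes differed by 0.34 on the log2 scale (SOCS3iKEO minus WT, SE 0.62, 95% interval -1.05 to 1.74, adjusted p = 0.664), and it was -0.22 on RPM as deposited. The LPS effects on Cryab differed by 0.69 (SOCS3iKEO minus WT, SE 1.04, 95% interval -1.64 to 3.03, adjusted p = 0.663).

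Markers of the medullary tubule, where Cryab is abundant, moved with Cryab in part. The 8 thin limb and medullary tubule markers summed to 163 and 241 RPM as deposited in SOCS3iKEO LPS, 460.3 RPM in SOCS3iKEO saline, 212 to 242 RPM in WT LPS and 518 and 324 RPM in WT saline. On this scale all LPS libraries were below all saline libraries and WT saline replicate 1 was the highest. After scaling, SOCS3iKEO LPS replicate 2 (339.9 RPM) was above WT saline replicate 2 (259 RPM), which does not occur for Cryab. As deposited, Aqp1 alone held most of the sum in saline, at 316.051 RPM in SOCS3iKEO and 403.78 and 198.353 RPM in WT. With LPS Aqp1 had 61.79 and 87.255 RPM in SOCS3iKEO and 30.485 to 59.894 RPM in WT. Whether the Aqp1 reads came from tubule or from endothelium cannot be told from these libraries. Bst1 went the other way in WT, at 158.286, 115.043 and 114.608 RPM with LPS against 50.972 and 77.903 RPM with saline. Of the 7 tested, 3 rose and 0 fell in SOCS3iKEO and 1 rose and 3 fell in WT. Over all genes 20.2% rose and 23.9% fell in SOCS3iKEO, and 6.85% rose and 8.79% fell in WT. The median log2 fold changes of the 7 were 0.12 in SOCS3iKEO and -0.62 in WT. In SOCS3iKEO the median and the sum, which the abundant markers set, thus differed in sign. The 7 collecting duct markers summed to 40.4 and 31.4 RPM in SOCS3iKEO LPS, 43.1 RPM in SOCS3iKEO saline, 9.82 to 10.8 RPM in WT LPS and 55.8 and 23.1 RPM in WT saline. After scaling they stood higher with LPS in SOCS3iKEO, at 60.2 and 44.3 RPM against 34.6 RPM with saline, and 1 of the 7 rose and 0 fell there (median log2 fold change 0.26), while 0 rose and 3 fell in WT (median -1.32). The 5 thick ascending limb markers summed to 262 RPM in each SOCS3iKEO LPS library, 162 RPM in SOCS3iKEO saline, 60 to 69.1 RPM in WT LPS and 149 and 93.4 RPM in WT saline, so in SOCS3iKEO they were higher with LPS while Cryab was lower. No marker of these 3 lists was at 0 in any whole group. The 9 smooth muscle and mural markers, of cells that also express Cryab, summed to 20.3 and 16.5 RPM in SOCS3iKEO LPS, 34.1 RPM in SOCS3iKEO saline, 8.45 to 10.6 RPM in WT LPS and 15.5 and 18.7 RPM in WT saline, with Cnn1 at 0 in WT LPS and 0 of the 7 tested called for LPS in either genotype. The part of these cells in the fall of Cryab was not tested.

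The genes that respond to high salt through NFAT5, which include transporters of the medulla, gave 5 genes in the table, and their summed level was 256 and 206 RPM as deposited in SOCS3iKEO LPS, 725 RPM in SOCS3iKEO saline, 216 to 350.3 RPM in WT LPS and 875 and 841 RPM in WT saline. Of the 4 tested, 0 passed in SOCS3iKEO and 1 fell in WT. It was Slc6a6, the taurine transporter, at 48, 101 and 97.7 scaled RPM in WT LPS against 336 and 362 in WT saline (log2 fold change -2.15, SE 0.35, adjusted p = 0.00511). Without WT saline replicate 1 its log2 fold change was -2.20 (adjusted p = 0.0622). Nfat5, which encodes the transcription factor itself, had a log2 fold change of -0.52 (SE 0.28, adjusted p = 0.155) in SOCS3iKEO. On RPM as deposited 3 of the 4 fell in each genotype.

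**Figure D3:**
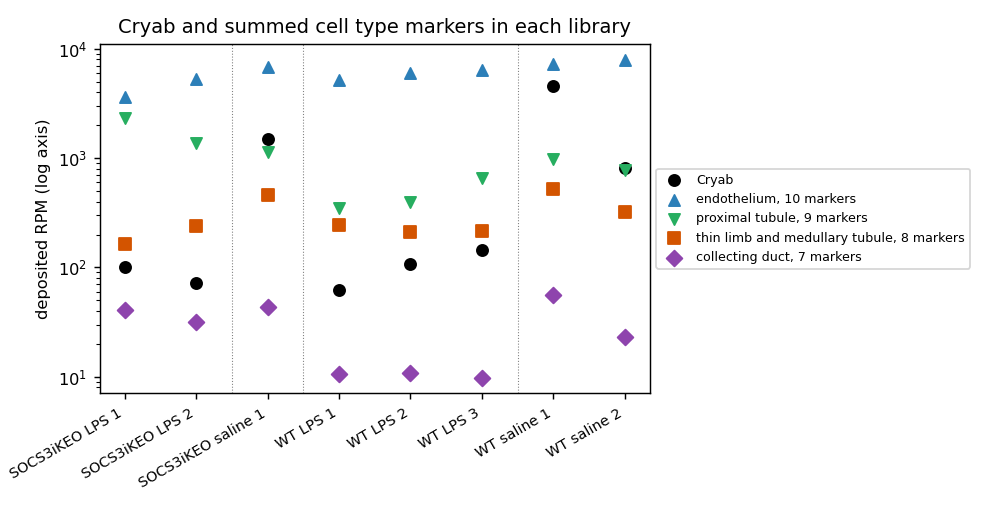
Cryab and the summed levels of 4 marker lists in each library, in deposited RPM on a log axis, with dotted lines between the groups. Cryab is at 62.142 to 145.6 RPM in the LPS libraries and at 816.332 to 4583.282 RPM in the saline libraries. The endothelial sum lies between 3616 and 7915 RPM, although single endothelial markers moved in opposite directions.

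Across the 8 libraries, on log2 scaled RPM, the genes divided into those that followed Cryab and those that did not. Pearson's r of Cryab was 0.90 with each of Hspa1a, Hspa1b and Hsph1, 0.01 with Dnajb1 and -0.21 with Bag3. Hspa1b and Hsph1 had r = 0.96, Hspa1a and Hspa1b 0.88, Hspa1a and Hsph1 0.83, and Dnajb1 and Bag3 0.85. These values describe 8 libraries that share the treatment groups and the scaling. Among 8130 genes whose mean log2 level was at least 3, the patterns most like that of Cryab were those of St3gal3 (r = 0.99), Sncg (0.975) and Pcyox1 (0.974). Sncg, which encodes gamma-synuclein, had 95.9 and 62.5 scaled RPM in SOCS3iKEO LPS, 738 in SOCS3iKEO saline, 45.7, 86.8 and 77.6 in WT LPS, against 952 and 524 in WT saline. St3gal3, a sialyltransferase, had a narrower range, from 16.8 to 20.3 scaled RPM in the LPS libraries and 23.7 to 29.2 in the saline libraries, and Pcyox1, prenylcysteine oxidase, ranged from 9.1 to 12.3 and from 18.1 to 26.8.

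The other genes of the chaperone network were read from lists chosen by function. Their counts stand against the shares of all 12820 genes. With LPS 20.2% of all genes rose and 23.9% fell in SOCS3iKEO, and 6.85% rose and 8.79% fell in WT. After LPS 24% were higher and 26.7% lower in SOCS3iKEO than in WT. For the difference of the LPS effects, 8.96% were more positive and 9.5% more negative in SOCS3iKEO. The regulators of the response came first. Of 4 HSF1 regulators, 3 fell and 0 rose with LPS in SOCS3iKEO and 0 passed in WT, where all 4 log2 fold changes lay between -0.81 and -0.23. Hsf1, the main activator, had 4.507 and 10.357 RPM as deposited in SOCS3iKEO LPS and 59.771 RPM in SOCS3iKEO saline, against 31.657, 54.782 and 42.353 RPM in WT LPS and 95.143 and 87.918 RPM in WT saline. It fell in SOCS3iKEO (log2 fold change -2.16, SE 0.43, adjusted p = 0.00398, limma) and was lower in SOCS3iKEO than in WT after LPS (-1.94, SE 0.32, adjusted p = 0.00129). In WT Hsf1 had -0.81 (SE 0.32, adjusted p = 0.114). The LPS effects on Hsf1 differed by -1.34 (SOCS3iKEO minus WT, SE 0.53, adjusted p = 0.107), and 0 of the 4 regulators passed for this difference. Hsbp1, which binds HSF1 and restrains it, also fell in SOCS3iKEO (-1.04, SE 0.24, adjusted p = 0.0079, limma). Hsf4 fell too (-1.05, SE 0.33, adjusted p = 0.0293), a call lost with edgeR (0.0551). Hsf4 was near the limit of detection, at 0.119 and 0 RPM in SOCS3iKEO LPS and 1.551 RPM in SOCS3iKEO saline. In SOCS3iKEO LPS replicate 1 a single read is 0.119 RPM. In WT, Hsbp1 had a log2 fold change of -0.23 (SE 0.18, adjusted p = 0.416).

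Of 8 other HSP70 and HSP110 genes, 2 rose and 2 fell in SOCS3iKEO and 0 passed in WT. The SOCS3iKEO counts are near the shares of all genes (20.2% and 23.9%). Hspa9, the mitochondrial HSP70, had 649.9 and 629 scaled RPM in SOCS3iKEO LPS, against 160 in SOCS3iKEO saline, and 181 to 360.1 in WT LPS, against 145 and 168 in WT saline. It rose in SOCS3iKEO (log2 fold change 1.99, SE 0.38, adjusted p = 0.00345), while in WT it had 0.59 (SE 0.29, adjusted p = 0.193) and the difference of the effects did not pass (1.4, SE 0.48, adjusted p = 0.0692). Hspa12b, an HSP70 relative of endothelial cells, fell in SOCS3iKEO (-1.59, SE 0.46, adjusted p = 0.0213) and was lower in SOCS3iKEO than in WT after LPS (-1.87, SE 0.35, adjusted p = 0.00223), and Hspa12a fell too (-1.29, SE 0.29, adjusted p = 0.00728). Between genotypes after LPS 2 of the 8 were higher in SOCS3iKEO and 3 lower.

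Of 13 HSP90 genes and co-chaperones, 2 rose and 5 fell in SOCS3iKEO, and 1 rose and 1 fell in WT. The gene that rose in WT was Fkbp5, an HSP90 co-chaperone that restrains the glucocorticoid receptor, and the gene that fell was Fkbp4, which acts on the same receptor in the opposite direction. Fkbp5 had 531 and 799 scaled RPM in SOCS3iKEO LPS, 94.6 in SOCS3iKEO saline, 1280.3, 1309 and 1885 in WT LPS, against 39.6 and 43.2 in WT saline. It rose in both genotypes, with a log2 fold change of 2.77 (SE 0.34, adjusted p = 0.00046) in SOCS3iKEO and 5.12 (SE 0.25, adjusted p = 1.75e-05) in WT. The difference of the effects was -2.34 (SE 0.42, adjusted p = 0.0108), and it did not pass without WT saline replicate 1 (-2.28, adjusted p = 0.0661). Fkbp4 had 27.2 and 29.2 scaled RPM in SOCS3iKEO LPS, against 109 in SOCS3iKEO saline (log2 fold change -1.92, SE 0.26, adjusted p = 0.000739), and 39.6 to 51.4 in WT LPS, against 138 and 145 in WT saline (-1.67, SE 0.19, adjusted p = 0.00111). Stub1, the ubiquitin ligase CHIP that takes clients from HSP70 and HSP90, fell in SOCS3iKEO (-2, SE 0.35, adjusted p = 0.00222).

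Between genotypes after LPS, 8 of the 13 were lower in SOCS3iKEO and 1 higher, where 26.7% of all genes were lower and 24% higher. Stub1 was lower by the largest margin of the 13 (-2.25, SE 0.26, adjusted p = 0.000248), followed by Chordc1 (-1.39, SE 0.24, adjusted p = 0.00153) and Stip1, which joins HSP70 to HSP90 (-1.26, SE 0.29, adjusted p = 0.0062). The LPS effect was more negative in SOCS3iKEO for 4 of the 13, with Stub1 at -2.20 (SE 0.43, adjusted p = 0.0138) and Ahsa1, the activator of the HSP90 ATPase, at -1.51 (SE 0.35, adjusted p = 0.0221). Without WT saline replicate 1, 0 of the 13 passed in that comparison, in which the number of genes called over the whole table was 191 in place of 2367.

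The chaperonin list held the most genes that rose. Of 14 genes of TRiC, the ring that folds actin and tubulin, and of prefoldin, which delivers clients to it, 8 rose and 0 fell in SOCS3iKEO, 4 rose and 0 fell in WT, and 6 were higher and 1 lower in SOCS3iKEO than in WT after LPS. The median log2 fold change of the list was 1.00 in SOCS3iKEO and 0.64 in WT, against -0.08 and -0.02 over all genes tested. Cct6a had 397 and 553 scaled RPM in SOCS3iKEO LPS, against 99.5 in SOCS3iKEO saline (log2 fold change 2.22, SE 0.34, adjusted p = 0.00124). Cct2 had 697 and 547 in SOCS3iKEO LPS, against 134 in SOCS3iKEO saline (2.20, SE 0.45, adjusted p = 0.00461). Tcp1 rose in SOCS3iKEO (1.95, SE 0.36, adjusted p = 0.00295) and in WT (0.96, SE 0.27, adjusted p = 0.0425), where Cct5 (0.88, SE 0.21, adjusted p = 0.0226) and Cct3 (0.87, SE 0.25, adjusted p = 0.0459) rose too. The difference of the effects passed for 1 of 14, Cct6a (1.4, SE 0.43, adjusted p = 0.0491).

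These counts depended on the fit and the scaling. When only the SOCS3iKEO libraries were fitted, 0 genes of any chaperone list passed for LPS in SOCS3iKEO. On RPM as deposited, where the median of all genes was -0.73 in SOCS3iKEO and -0.26 in WT, 4 chaperonin genes rose and 4 fell in SOCS3iKEO, 0 passed in WT, and 0 were higher and 5 lower in SOCS3iKEO than in WT after LPS. The list median stayed positive for LPS in SOCS3iKEO (0.15) and in WT (0.35) and was -0.17 between genotypes after LPS. Without WT saline replicate 1, 0 of the 14 passed in WT, with a median of 0.65. On RPM as deposited, more genes of the earlier lists fell: 2 of the 4 HSF1 regulators in WT, 4 of the 8 other HSP70 and HSP110 genes in SOCS3iKEO and 2 in WT, and 7 of the 13 HSP90 genes and co-chaperones in SOCS3iKEO and 2 in WT.

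Of 12 other J proteins, 4 rose and 3 fell in SOCS3iKEO, where 20.2% of all genes rose and 23.9% fell. In WT 2 of the 12 rose and 0 fell. Dnaja2, a partner of the constitutive HSP70, rose in SOCS3iKEO (log2 fold change 1.68, SE 0.33, adjusted p = 0.00353), with 552 and 414 scaled RPM in SOCS3iKEO LPS, against 148 in SOCS3iKEO saline. Dnajb2 had 12.5 and 17.1 scaled RPM in SOCS3iKEO LPS, against 65.6 in SOCS3iKEO saline (-2.09, SE 0.28, adjusted p = 0.000736), and Dnaja4 fell as well (-2.23, SE 0.56, adjusted p = 0.0114). In WT, Dnajc2 (0.84, SE 0.23, adjusted p = 0.0398) and Dnajb5 (0.76, SE 0.19, adjusted p = 0.029) rose, both calls being lost without WT saline replicate 1 (adjusted p = 0.168 and 0.232). On RPM as deposited 0 J proteins rose in WT and 1 rose and 5 fell in SOCS3iKEO.

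The remaining lists are also set against the shares of all genes. With LPS 20.2% rose and 23.9% fell in SOCS3iKEO, and 6.85% rose and 8.79% fell in WT. Of 5 other BAG and nucleotide exchange factors, 0 passed for LPS in either genotype, and Hspbp1 was higher in SOCS3iKEO than in WT after LPS (log2 fold change 0.77, SE 0.20, adjusted p = 0.0115), with 0.20 (0.415) on RPM as deposited. Bag6, the most abundant of them, had 0.37 (SE 0.24, adjusted p = 0.235) in SOCS3iKEO and 0.14 (SE 0.18, adjusted p = 0.626) in WT. Of 5 other small heat shock proteins that passed the filter, 2 rose in SOCS3iKEO and 1 rose in WT. Hspb9 had 5.48 and 6 scaled RPM in SOCS3iKEO LPS, against 0.679 in SOCS3iKEO saline (2, SE 0.33, adjusted p = 0.00179), and 2.64 to 3.88 in WT LPS, against 1.02 and 1.33 in WT saline (1.01, SE 0.25, adjusted p = 0.0261, with 0.135 without WT saline replicate 1). Hspb6 rose in SOCS3iKEO (1.12, SE 0.37, adjusted p = 0.0359), a call lost with edgeR (0.063) and on RPM as deposited (0.308). Of 10 mitochondrial chaperones and proteases, which include Hspa9, 2 rose and 1 fell in SOCS3iKEO and 1 rose in WT. After LPS 1 of the 10 was higher and 3 were lower in SOCS3iKEO than in WT, where 24% of all genes were higher and 26.7% lower. Clpx, the unfoldase of a mitochondrial protease, rose in SOCS3iKEO (1.30, SE 0.35, adjusted p = 0.0149, with 0.224 on RPM as deposited) and Hscb, the J protein of iron-sulphur cluster assembly, fell (-1.91, SE 0.48, adjusted p = 0.0116). Grpel1, the exchange factor of mitochondrial HSP70, rose in WT (0.68, SE 0.20, adjusted p = 0.0482), a call lost with edgeR (0.0557), on RPM as deposited (0.184) and without WT saline replicate 1 (0.232).

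**Figure D4:**
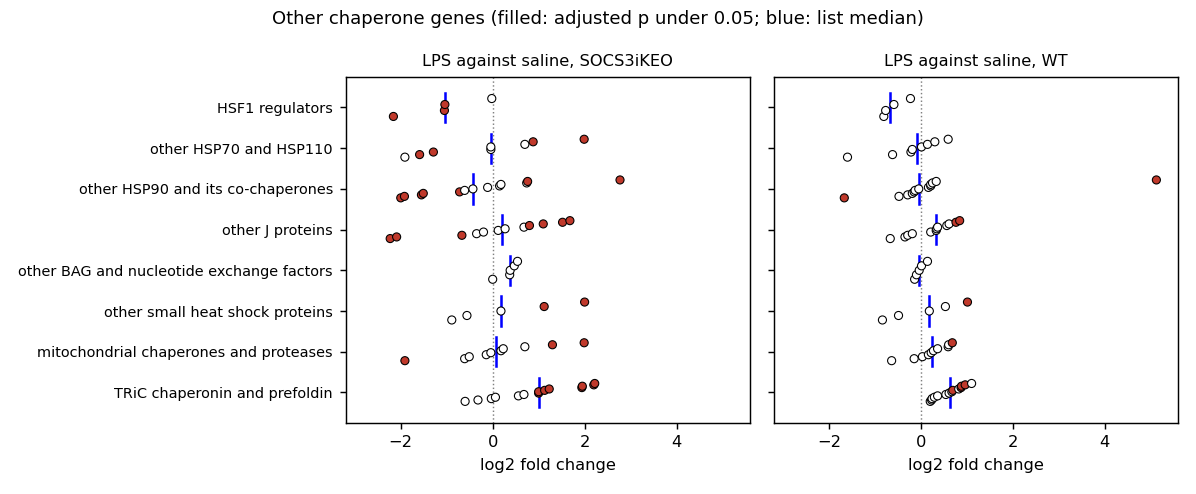
Log2 fold changes on log2(TMM-scaled RPM + 1) of the tested genes of 8 other chaperone lists for LPS against saline, in SOCS3iKEO and in WT, with each point 1 gene, filled where the adjusted p is under 0.05, and a blue line at the list median. The chaperonin and prefoldin genes lie mostly to the right of 0 in both panels, and the Fkbp5 point in WT lies at 5.12.

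After saline, SOCS3iKEO was set against WT with 1 library against 2. The log2 fold changes of the 6 genes were -0.73 for Hspa1a (95% interval -2.35 to 0.89), -0.99 for Hspa1b (-3.05 to 1.08), 0.09 for Hsph1 (-1.17 to 1.34), -0.54 for Dnajb1 (-1.30 to 0.21), -0.45 for Bag3 (-1.25 to 0.36) and -0.35 for Cryab (-2.22 to 1.53), each with an adjusted p of 1. The SOCS3iKEO saline library lay between the WT saline libraries for Hspa1a, Hspa1b, Hsph1 and Cryab and below both for Dnajb1 and Bag3. The interval of Hspa1b includes a difference as large as its LPS effect in WT, and that of Cryab does not. Without WT saline replicate 1 the log2 fold changes of Hspa1a, Hspa1b and Cryab were positive, at 0.39, 0.50 and 0.89, and that of Hsph1 was -0.80 without WT saline replicate 2, all with an adjusted p of 1.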

How the data were processed

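Ribosome-bound RNA of kidney endothelium was measured in 8 mice with the Ion AmpliSeq mouse transcriptome panel on an Ion Chef system, per the labels' protocols. The deposited table gives RPM for 23930 amplicons, 1 per gene. The authors divided reads by the panel total, which is read from the values, whose columns each sum to 1000000. The submitters' processing notes name mm10 and the Transcriptome Analysis Console. No aligner or counter is given in the sources used here. Of the values, 100% were whole multiples of 1 read within 0.1 read, and the recovered reads were 7093794 to 14877519 per library. In 27 rows a spreadsheet had turned the gene name into a date. PCR reads carry no molecular identifiers, so counting error is a lower limit on error.

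The main test was limma 3.58.1 (R 4.3.3) with a trended prior on log2(TMM-scaled RPM + 1), which understates changes of low genes. FilterByExpr of edgeR 4.0.16 (minimum count 10, minimum total 15) kept 12820 genes, and p-values were adjusted over all of them by the Benjamini-Hochberg method at a threshold of 0.05. A single model with 4 group means was fitted to all 8 libraries, and the spread was pooled over the groups. Leaving out a library outside a comparison thus changed the standard error there but not the log2 fold change. P-values measure the spread between these libraries. On recovered reads, edgeR's quasi-likelihood test called 5194 genes between LPS and saline in SOCS3iKEO and 2066 in WT, 6253 for genotype after LPS, 0 for genotype after saline and 2114 for the interaction. Other alternatives were DESeq2 1.42.0, RLE size factors, RPM as deposited, no filter, pseudocounts 0.1 and 10, only the groups compared, a term for Y-linked reads and leaving out each library in turn.

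The genes, lists and tests were chosen with earlier results of these data known. All listed genes were named. From each other list up to 3 genes per comparison were named, called genes with the largest log2 fold change first or, with none called, the most abundant. Hsf1 was also given where it was not called. The 3 genes most correlated with the gene of largest negative change in WT were also named, and no gene had a positive change there. Positions are from GENCODE M21 and promoters from RefSeq. Transcripts were compared by shared stretches of 31 bases.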

Additional observations from a re-analysis of the deposited data

Results flagged for a closer look

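The LPS effect on Bag3 differed between genotypes. The log2 fold change for LPS was 2.03 in SOCS3iKEO and -0.36 in WT, a difference of 2.39 (SE 0.44, adjusted p = 0.0113, limma), which stood out by the test of the difference itself. Both SOCS3iKEO LPS libraries were above the SOCS3iKEO saline library on the deposited and on the scaled values. On the scaled values this held for 40% of all genes. The WT LPS and WT saline libraries overlapped after scaling, and as deposited the WT LPS libraries were below the WT saline libraries. By the same test 8 of 9 proximal tubule markers had a more positive LPS effect in SOCS3iKEO and 0 a more negative one. The median difference of the 9 was 2.38, and 8.96% of all genes had a more positive effect. The part of tubule RNA in the Bag3 difference was not tested. The groups of this difference split exactly by the runs of animal numbers (6992 to 6998 against 7032 to 7038), so it cannot be told apart from a difference between those runs. The difference was 1.55 to 2.65 over the 15 alternatives run, and it missed the threshold without WT saline replicate 1 (2.14, adjusted p = 0.0693).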

How the results depend on the processing

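No paired analysis was possible because each library carries its own animal number and the labels pair no mice. Of the fold changes of the 6 genes under the alternatives, 421 kept their direction and side of the threshold. Another 29 lost a call, 23 gained one and 13 changed sign. Leaving out a library outside a comparison, or fitting only the groups compared, cannot change a log2 fold change. Part of the kept directions was therefore fixed in advance. Without a filter on low counts 1 gene passed for LPS in WT, 1 in SOCS3iKEO and 1 between genotypes after LPS, in place of 3, 3 and 2. With only the groups compared, the LPS effect in SOCS3iKEO kept 0 calls and the genotype effect after LPS had 4. RPM as deposited and the term for Y-linked reads left 1 between genotypes after LPS. For the interaction, RLE size factors gave 2 and DESeq2 3, in place of 1. Leaving out each library in turn gave 1 to 4 genes for LPS in WT, 2 to 5 in SOCS3iKEO, 1 to 4 between genotypes after LPS and 0 to 3 for the interaction. Between genotypes after saline 0 genes passed under every alternative run.

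The changes of sign were in values that did not pass the test. They were Cryab between genotypes after LPS (-0.22 on RPM as deposited, -0.01 with the term for Y-linked reads) and Hsph1 between genotypes after saline (-0.17 with edgeR, -0.15 with DESeq2, -0.31 with the term for Y-linked reads). The rest came from leaving out a library. Over the libraries left out in turn, the interaction ranged from -0.69 to 1.55 for Hspa1a, -0.11 to 1.67 for Hsph1 and -0.54 to 1.93 for Cryab. The difference between genotypes after saline ranged from -1.86 to 0.39 for Hspa1a, -2.47 to 0.50 for Hspa1b, -0.80 to 0.98 for Hsph1 and -1.58 to 0.89 for Cryab, and the LPS effect on Dnajb1 in WT from -0.66 to 0.01. The cause was not tested. Fold changes of the named genes of the other lists kept their call 723 times and lost it 145 times, with 0 changes of sign. Here too some alternatives could not change the sign. With 1 to 3 libraries per group, small differences were not detectable.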
